A study of Mus musculus with 2 samples.

Results

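The type I interferon response genes examined here were 39 genes that cells switch on after interferon alpha or beta. They were chosen by gene symbol, with earlier results of these data known, and all 39 rows were found in both matrices. The features file held 55357 genes in all. Their RNA was followed in cardiac T cells of mice, 7 days after myocardial infarction, in which heart muscle dies for lack of blood. All mice were wild type and all had an infarct. One group received anti-PD1, which targets PD1, an inhibitory receptor on activated T cells (gene Pdcd1), and the comparison group received anti-IgG. Each group was 1 droplet-based single-cell library. The labels give no age, dose or number of animals, and do not say whether hearts were pooled. The study's design names sorted T cells, while its protocols describe no sort, and B cells, macrophages, dendritic and endothelial cells were present. With 1 library a group there was no replicate, so no difference below was tested and no p-value is given. The treatment cannot be told apart from any other difference between the preparations.

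Type I interferons bind a receptor made of the chains Ifnar1 and Ifnar2. The kinases Jak1 and Tyk2 then activate Stat2, which joins Irf9 in a complex that binds a DNA element called the interferon-stimulated response element. The genes under that element encode proteins that block viral translation, degrade foreign RNA, sense nucleic acids and amplify or stop the signal itself. Cells also keep a low level of many of these RNAs without infection, so a sample can differ in the level that most cells carry, in the share of cells that respond strongly, or in both. These quantities were measured separately.

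Promoter sequence was at hand for 30 of the 39 members, in a RefSeq table on build GRCm38.p6 that holds 250 bases before and 50 bases after each gene start. The core of the interferon-stimulated response element, taken as GAAA, any 2 bases and GAAA again, was searched on both strands. It was present for 19 of the 30 members (63.3%) and for 3.99% of all 27025 genes in the table. A match describes letters in this window only, and matches that overlap were counted singly. The 160 bases before the start are shown for members that later stand for different patterns, 5′ to 3′ on the gene's strand, with matches to the response element core, on either strand, in capitals. Isg15 (chr4:156200819-156200978, minus strand) held 3 overlapping matches, beginning between -78 and -66 from the start. Ifit1 (chr19:34640729-34640888, plus strand) and Ifit3 (chr19:34583369-34583528, plus strand) held 2 each, which read as the reverse complement on the printed strand.
Isg15: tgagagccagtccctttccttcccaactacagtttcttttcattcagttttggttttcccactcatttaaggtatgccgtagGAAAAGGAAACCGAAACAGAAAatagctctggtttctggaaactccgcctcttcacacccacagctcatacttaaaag
Ifit1: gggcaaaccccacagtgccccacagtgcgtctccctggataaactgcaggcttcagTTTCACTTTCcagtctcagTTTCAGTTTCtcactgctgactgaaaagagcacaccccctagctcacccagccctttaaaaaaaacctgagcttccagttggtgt
Ifit3: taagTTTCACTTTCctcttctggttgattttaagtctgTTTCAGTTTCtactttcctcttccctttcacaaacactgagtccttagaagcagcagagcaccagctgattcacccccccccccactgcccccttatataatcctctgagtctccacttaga

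The next windows belong to members that were lower in anti-PD1 in all 8 T-like subsets described below. Slfn5 (chr11:82951942-82952101, plus strand) held 1 match, at -155. Ifi208 (chr1:173673505-173673664, plus strand) and Ifi213 (chr1:173599273-173599432, minus strand) belong to the p200 family of DNA-binding proteins and lie on the same chromosome in opposite orientation. Each held 1 match, at -58 and -73, inside a run of 88 bases that the 2 windows share letter for letter.
Slfn5: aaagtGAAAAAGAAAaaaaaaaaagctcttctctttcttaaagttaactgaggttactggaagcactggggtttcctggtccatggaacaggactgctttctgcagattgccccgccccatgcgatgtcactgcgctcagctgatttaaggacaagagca
Ifi208: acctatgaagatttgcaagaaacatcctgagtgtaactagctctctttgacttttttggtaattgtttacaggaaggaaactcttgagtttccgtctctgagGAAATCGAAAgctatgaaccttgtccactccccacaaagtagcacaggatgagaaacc
Ifi213: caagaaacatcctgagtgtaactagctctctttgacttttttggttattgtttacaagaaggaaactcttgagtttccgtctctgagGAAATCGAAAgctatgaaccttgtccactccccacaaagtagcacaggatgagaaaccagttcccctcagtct

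Irf7 (chr7:141266425-141266584, minus strand) and Slfn1 (chr11:83116660-83116819, plus strand) had no match in the 300 bases. They are shown because Irf7 was among the members with the most similar levels in the 2 libraries and Slfn1 was lower by over 2 times in anti-PD1.
Irf7: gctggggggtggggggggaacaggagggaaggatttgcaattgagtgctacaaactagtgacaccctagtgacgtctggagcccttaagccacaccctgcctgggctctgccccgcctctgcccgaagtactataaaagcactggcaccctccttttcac
Slfn1: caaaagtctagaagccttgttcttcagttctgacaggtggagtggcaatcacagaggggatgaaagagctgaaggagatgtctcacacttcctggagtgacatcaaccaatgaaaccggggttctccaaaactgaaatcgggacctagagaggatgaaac

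The difference between libraries was about as large with the motif as without it. Among T-like cells that did not respond strongly (defined below), the median ratio of anti-PD1 over anti-IgG was 0.627 for the 19 members with a match (range 0.319 to 1.21) and 0.652 for the 11 without (0.378 to 1.02).

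The anti-IgG library held 4380 barcodes and 22806806 UMIs, the molecular identifiers that count captured RNA molecules. The anti-PD1 library held 6026 barcodes and 29046341 UMIs. After filtering, 4309 and 5835 cells were kept, and 46 barcodes occurred in both libraries. T-like cells, those with at least 2 UMIs of T cell receptor and Cd3 genes that did not also pass the gate of another lineage, made up 86.4% and 84.5% of kept cells, with medians of 3957 and 3740.5 UMIs. Cd3e was seen in 94.4% and 93.9% of them. Cells carrying markers of more than 1 lineage, 289 and 414, were set aside as likely doublets and no doublet caller was run. Of the T-like cells, 26 and 38 had under 1000 UMIs. Levels below are CPM, the UMIs of a gene per 1000000 UMIs of the same cells. Markers of other cells stayed at low levels within T-like cells. The 8 macrophage markers summed to 7.14 CPM in anti-IgG and 10.0 in anti-PD1 (6 of 8 higher in anti-PD1), the 6 conventional dendritic markers to 5.49 and 10.5 (4 of 6 higher) and the 5 plasmacytoid dendritic markers to 37.1 and 31.2 (1 of 5 higher). The 4 neutrophil markers summed to 0.0572 and 1.42, with Retnlg at 0 in both libraries. The 7 endothelial markers summed to 77.4 and 64.1, the 6 B cell markers to 14.3 and 13.4 and the 4 haemoglobin genes to 97.6 and 0.229, where 1692 of the 1708 anti-IgG UMIs lay in 3 cells. The part of these in the results was not tested. The type 17 gamma-delta markers summed to 894 and 1315 and Cd4 stood at 190 CPM in anti-IgG and 130 in anti-PD1, so the mix of T cells differed.

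In T-like cells as a whole, the interferon response genes were lower in the anti-PD1 library. Their summed level was 3487 CPM in anti-IgG and 2216 CPM in anti-PD1, a ratio of 0.635 (95% counting interval 0.628 to 0.643). All 39 members had a ratio below 1, but Isg15 passed above it with other settings, to 1.08 with each cell thinned to 1000 UMIs and to 1.01 with each cell weighted alike. Of all genes measured, 63.0% had a ratio below 1. Of the 39, 27 were lower by at least 1.5 times, beside 9.84% of the 11856 genes with at least 50 UMIs, and 0 were higher by as much, beside 6.09%. Because the members were chosen with earlier results of these data known, these counts are a description only. The median log2 ratio was -0.79 for the members and -0.11 for all those genes. With the T-like subsets weighted to the same mix in both libraries, the ratio of the summed levels was 0.671. Intervals here and below cover counting error only, and they take each UMI as an independent draw, which UMIs of the same cell are not, so they are too narrow.

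The 5 members with tetratricopeptide repeats, which bind viral RNA or hold back its translation, were all lower by at least 1.5 times. Ifit1, which binds RNA that lacks a host cap mark, stood at 37.9 CPM in anti-IgG and 18.8 in anti-PD1 (ratio 0.495, 0.437 to 0.561). Ifit3, its binding partner, stood at 54.2 and 25.7 (ratio 0.474, 0.426 to 0.527). Its close copy Ifit3b was at 15.4 and 8.42, and reads that fit both copies could be split or lost in counting, so their separate values are uncertain. Ifit2 was at 33.0 and 18.8, a ratio of 0.568. Ifit1bl1, an Ifit1 relative of the same cluster, showed the lowest ratio of all 39 members, with 31.8 and 10.1 CPM and a ratio of 0.318 (0.270 to 0.372).

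Of 4 direct antiviral effectors, 3 were lower by 1.5 times. Mx1, a GTPase that traps viral nucleocapsids, had 350 UMIs in anti-IgG and 240 in anti-PD1 (ratio 0.549, 0.464 to 0.649). Its relative Mx2 stood at 7.03 and 4.30 CPM (0.612). Rsad2, which encodes viperin, an enzyme that makes a chain-terminating nucleotide, had 350 and 256 UMIs (ratio 0.585). The exonuclease gene Isg20 differed less, with 112 and 88.2 and a ratio of 0.789. The oligoadenylate synthetases make the messenger that turns on RNase L. Oas1a was at 26.2 and 15.1 and Oas2 at 11.1 and 5.31, ratios of 0.577 and 0.476, and these were the only members of the 5 past 1.5 times. Oas3 (37.3 and 26.3) and Oasl2 (18.9 and 13.4) had ratios of 0.705 and 0.708. Oasl1, a relative that holds back Irf7 translation, had 107 and 117 UMIs in all and a ratio of 0.875 whose interval reached 1.15.

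The 2 members of the ubiquitin-like system differed by unequal amounts. Isg15, the ubiquitin-like modifier, stood at 113 and 103 CPM (ratio 0.908, 0.854 to 0.965). Usp18, the protease that removes Isg15 from its targets and also blocks the receptor, stood at 31.1 and 16.9 (ratio 0.544, 0.476 to 0.622). Thinned cells and equal cell weights put Isg15 above 1, as given above.

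Of 3 sensors of nucleic acid, 2 were lower by 1.5 times. Ifih1, which encodes the long double-stranded RNA sensor MDA5, was at 33.9 and 21.6 CPM, and Dhx58, the related LGP2 gene, at 16.8 and 10.6, ratios of 0.637 and 0.629. Zbp1, a sensor of left-handed nucleic acid that can start cell death, was at 96.8 and 76.5 with a ratio of 0.790. None of the 3 transcription factor genes was lower by 1.5 times. Irf7, the factor that amplifies interferon production, was at 110 and 102 (ratio 0.927). Stat2 was at 26.5 and 19.7 and Irf9, its DNA-binding partner, at 60.9 and 42.9, ratios of 0.743 and 0.704.

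All 6 p200 members were lower by at least 1.5 times, with ratios from 0.420 to 0.533. Ifi203 stood at 276 CPM in anti-IgG and 147 in anti-PD1. Ifi208 stood at 165 and 80.2, Ifi209 at 158 and 77.1, Ifi213 at 139 and 67.0 and Ifi206 at 59.7 and 25.3. Ifi204, a DNA sensor, had 61 and 32 UMIs in all. These genes are near copies of each other, so the split of reads among them is uncertain. Relatives outside the 39 members were lower too, with ratios of 0.613 for Mndal and 0.433 for Ifi214. All 3 Schlafen members were lower by 1.5 times too; these genes encode regulators of T cell quiescence and RNA cleavage. Slfn1 was at 204 and 90.5 (ratio 0.443), Slfn5 at 68.5 and 27.3 (0.399) and Slfn8 at 55.0 and 25.6 (0.465). Outside the members, Slfn2, needed for quiescence in T cells, was at 457 and 256 (0.561).

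Of the other 8 members, 5 were lower by 1.5 times, and ratios ran from 0.381 to 0.889. Bst2, the tetherin gene that holds virus particles at the cell surface, was at 198 and 176 CPM. Ifi27l2a was at 949 and 653, a ratio of 0.688 (0.673 to 0.704). Trim30a, which encodes a ubiquitin ligase, was at 83.4 and 53.3, and Phf11b at 88.0 and 53.9. Xaf1, a partner of an apoptosis inhibitor, was at 55.3 and 36.7, and Rtp4 at 60.0 and 44.2. Ifi44 had 45 and 22 UMIs and Phf11d 42 and 20, and their ratios of 0.391 and 0.381 had intervals up to 0.665 and 0.664.

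Strongly responding cells were then separated from the rest. Each cell was thinned at random to 1000 UMIs, and it was called strongly responding when at least 4 UMIs came from at least 3 of 12 core genes (Ifit1, Ifit2, Ifit3, Ifit3b, Ifit1bl1, Isg15, Rsad2, Usp18, Mx1, Oas3, Oasl1 and Oasl2). The core UMIs per cell form 1 falling series with a long tail, so the call marks a range and not a cell type. Of the thinned T-like cells, 83.0% in anti-IgG and 86.1% in anti-PD1 had 0 core UMIs. Cells with 3 core UMIs, just under the limit, numbered 47 and 32, and 22 and 16 cells had 4. At 4 or more core UMIs there were 95 and 76 cells, of which 84 and 61 also had 3 core genes. In simulated cells with the mean core levels of the called cells, 89.9% of anti-IgG and 85.9% of anti-PD1 cells were called, so the call can miss such cells. Those means come from cells already called, so the rates do not give the share of responding cells missed in either library.

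**Figure D1:**
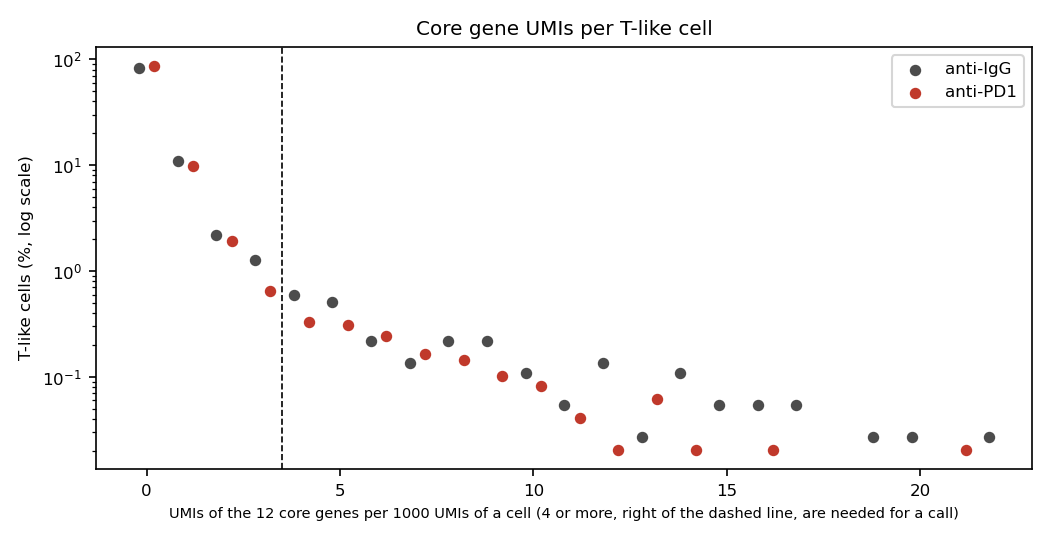
Share of T-like cells (vertical axis, percent, log scale) with each number of UMIs from the 12 core genes per 1000 UMIs (horizontal axis), grey for anti-IgG and red for anti-PD1, with points shifted sideways for clarity. The 2 series fall without a gap at the dashed line, and the anti-IgG points lie higher through most of the tail.

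Strongly responding cells were 84 of 3697 T-like cells in anti-IgG (2.27%, exact Clopper-Pearson 95% interval 1.82 to 2.81) and 61 of 4890 in anti-PD1 (1.25%, 0.956 to 1.60). The intervals count cells of 1 library each and say nothing of the spread between animals. B-like cells gave 0 of 58 and 0 of 142, which allows shares of up to 5.17% and 2.11% (3 counts of the total; the exact upper bounds are 6.16% and 2.56%). The shares follow the limit chosen: 3.73% and 1.96% with at least 3 UMIs of 2 core genes, 1.33% and 0.695% with at least 6 UMIs of 4, and 8.84% and 5.07% without thinning. The anti-PD1 share was the lower one under each of these limits.

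Among the 8 T-like subsets, effector cells held the highest shares. Among CD4 effector cells, 32 of 621 in anti-IgG (5.15%) and 14 of 450 in anti-PD1 (3.11%) responded strongly. Among CD8 effector cells the counts were 13 of 377 (3.45%) and 23 of 622 (3.70%). Intervals overlapped in both subsets, and another random thinning gave 4.19% and 4.0% for CD4 and 3.45% and 2.73% for CD8 effector cells. The order of the libraries in CD8 effector cells thus turned with the random draw. The 4 neutrophil markers stood at 0 CPM in the strongly responding anti-IgG cells and 107 in those of anti-PD1, against 1.42 in all anti-PD1 T-like cells. Most of their UMIs in anti-PD1 T-like cells thus lay in the few called cells. The part of these markers' cells in the shares was not tested. Naive cells responded rarely, with 2 of 447 and 1 of 538 CD8 and 1 of 613 and 2 of 686 CD4 cells. Type 17 gamma-delta cells gave 8 of 329 and 5 of 680. T-like cells that met no subset gate gave 22 of 979 (2.25%, 1.41 to 3.38) and 12 of 1437 (0.835%, 0.432 to 1.45).

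**Figure D2:**
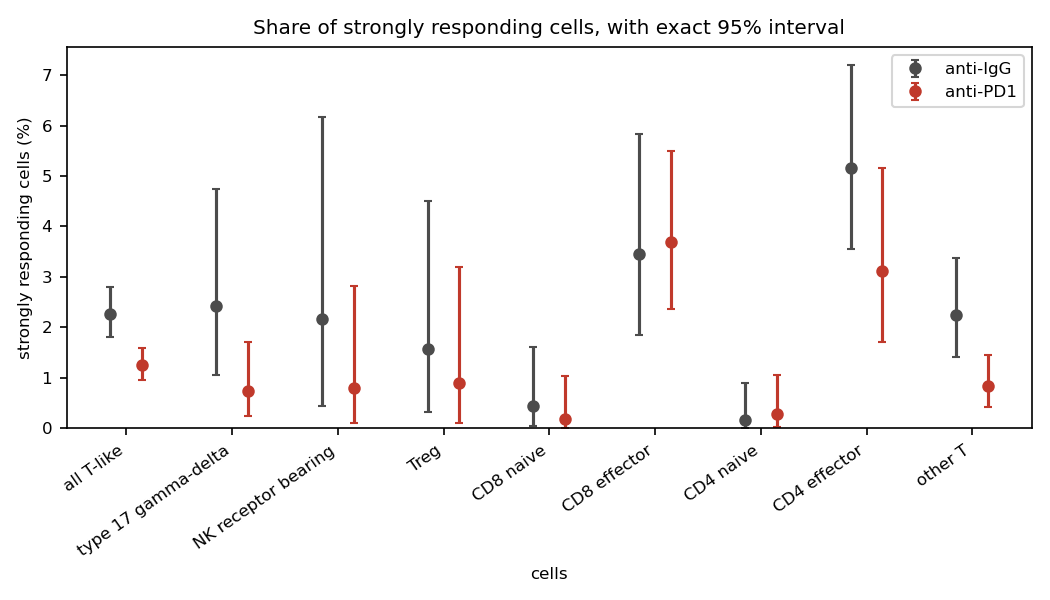
Percent of cells called strongly responding (vertical axis) in all T-like cells and in the 8 T-like subsets (horizontal axis), grey for anti-IgG and red for anti-PD1, with exact 95% intervals as bars. The effector subsets stand highest in both libraries, between 3.11% and 5.15%, and the naive subsets lowest.

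These few cells held a large part of the RNA. The 84 anti-IgG cells carried 17.1% of all member UMIs of T-like cells and 42.0% of the core UMIs, and the 61 anti-PD1 cells 12.6% and 31.4%. The part varied by gene. In anti-IgG it was 61.0% for Ifit3b, 58.9% for Rsad2 and 45.6% for Isg15, core genes whose part is raised by the call itself. Outside the core it ran from 6.69% for Irf9, 8.82% for Ifi27l2a and 9.83% for Ifi203 to 53.7% for Mx2 and 65.6% for Ifi204. The 27 members outside the core were not used for the call, and all 27 were at least 2 times higher in strongly responding than in other T-like cells of both libraries, beside 2.92% of 11840 genes outside the core. Their median excess was 8.50 times in anti-IgG and 11.4 times in anti-PD1.

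Without the strongly responding cells, 37 of the 39 members still had lower levels in anti-PD1, of which Mx2, Oasl1, Isg20, Bst2 and Ifi44 passed above a ratio of 1 in thinned cells. Mx2, Oasl1 and Ifi44 were each seen in at most 0.514% of the thinned T-like cells of either library. Their thinned ratios thus rest on few UMIs. Of all genes measured in the cells that did not respond strongly, 63.2% had a ratio below 1. The summed level was 2964 CPM in anti-IgG and 1961 in anti-PD1, a ratio of 0.662 (0.653 to 0.670). Of 37 members with at least 50 UMIs, 21 were lower by 1.5 times, beside 9.83% of all 11815 genes, and 0 were higher, beside 6.11%. For the members the median log2 ratio was -0.62, against -0.10 for all genes. The 6 p200 genes had ratios from 0.438 to 0.544. Ifi203 stood at 255 and 139 CPM, Ifi208 at 145 and 72.5 and Ifi213 at 126 and 62.7. The Schlafen genes had ratios of 0.451 (Slfn1), 0.488 (Slfn5) and 0.463 (Slfn8). Ifit1bl1 stood at 25.9 and 8.26, a ratio of 0.319. Ifit1 stood at 18.4 and 9.74 and Ifit3 at 24.0 and 13.2, ratios of 0.531 and 0.551.

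Some members were close to equal. Irf7 was at 89.6 and 91.3 CPM (ratio 1.02, 0.952 to 1.09), Bst2 at 163 and 156 (0.958, 0.911 to 1.01) and Oasl1 at 4.11 and 3.99 (0.972, 0.700 to 1.35). Isg15 was higher in anti-PD1, with 63.2 and 76.3 and a ratio of 1.21 (1.12 to 1.30). Since Isg15 itself helps to call a cell, the call was repeated without it, which gave 76.9 and 83.6 and a ratio of 1.09 (1.01 to 1.17). Its ratio was 1.69 in thinned cells, where the thinned counts also chose the cells.

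Within the strongly responding cells, most members had an interval that included a ratio of 1. Isg15 stood at 2092 CPM in anti-IgG and 2133 in anti-PD1, Ifi27l2a at 3389 and 3483, Bst2 at 1580 and 1690 and Irf7 at 915 and 920. Of 10 members with an interval below 1, 7 were p200 or Schlafen genes. The share of all genes with such an interval in these cells was not counted. Ifi203 was at 1098 and 798 (ratio 0.727, 0.617 to 0.854) and Ifi213 at 655 and 404 (0.617, 0.492 to 0.770). Slfn5 was at 943 and 383, a ratio of 0.406 (0.325 to 0.504), and Slfn1 at 834 and 530. Slfn8, with a ratio of 0.856, had an interval that reached 1.15. Ifit3 (1248 and 988), Ifit1bl1 (266 and 154) and Oas1a (248 and 150) were the other 3, while Isg20 was higher, at 1059 and 1224 (1.16, 1.002 to 1.33). Because the calling limit sets the least core level of such cells, similar core levels are partly a result of the call.

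**Figure D3:**
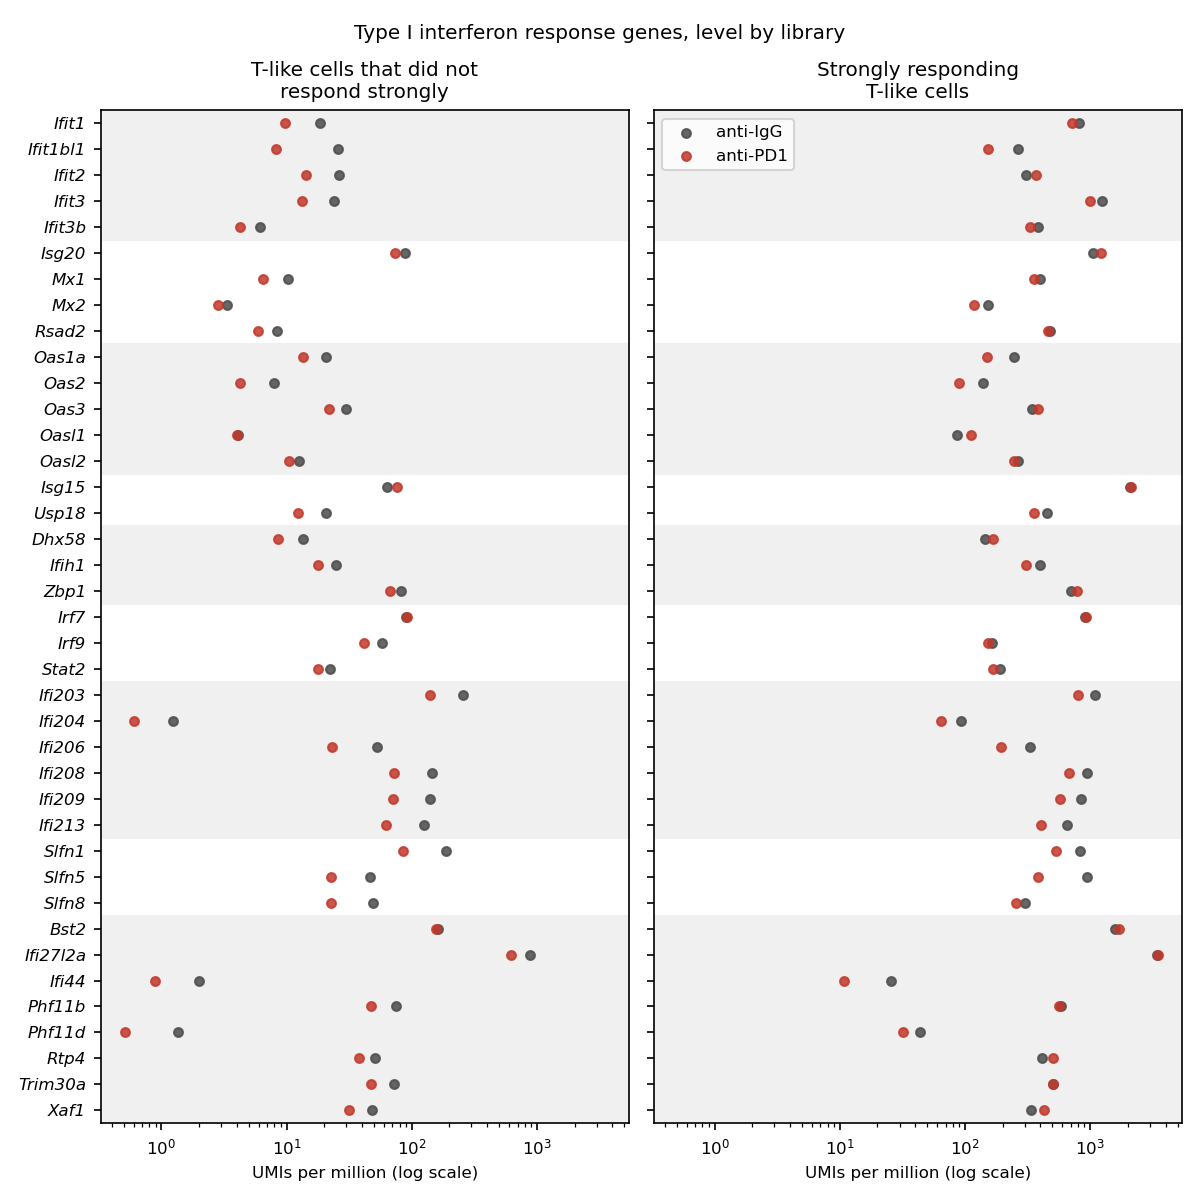
CPM (horizontal axis, log scale) of the 39 members (vertical axis, shaded bands group genes by role) in T-like cells that did not respond strongly (left) and in strongly responding T-like cells (right), grey for anti-IgG and red for anti-PD1. On the left the p200 and Schlafen points lie well apart while Irf7, Bst2 and Oasl1 overlap, and on the right most pairs lie close together.

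**Figure D4:**
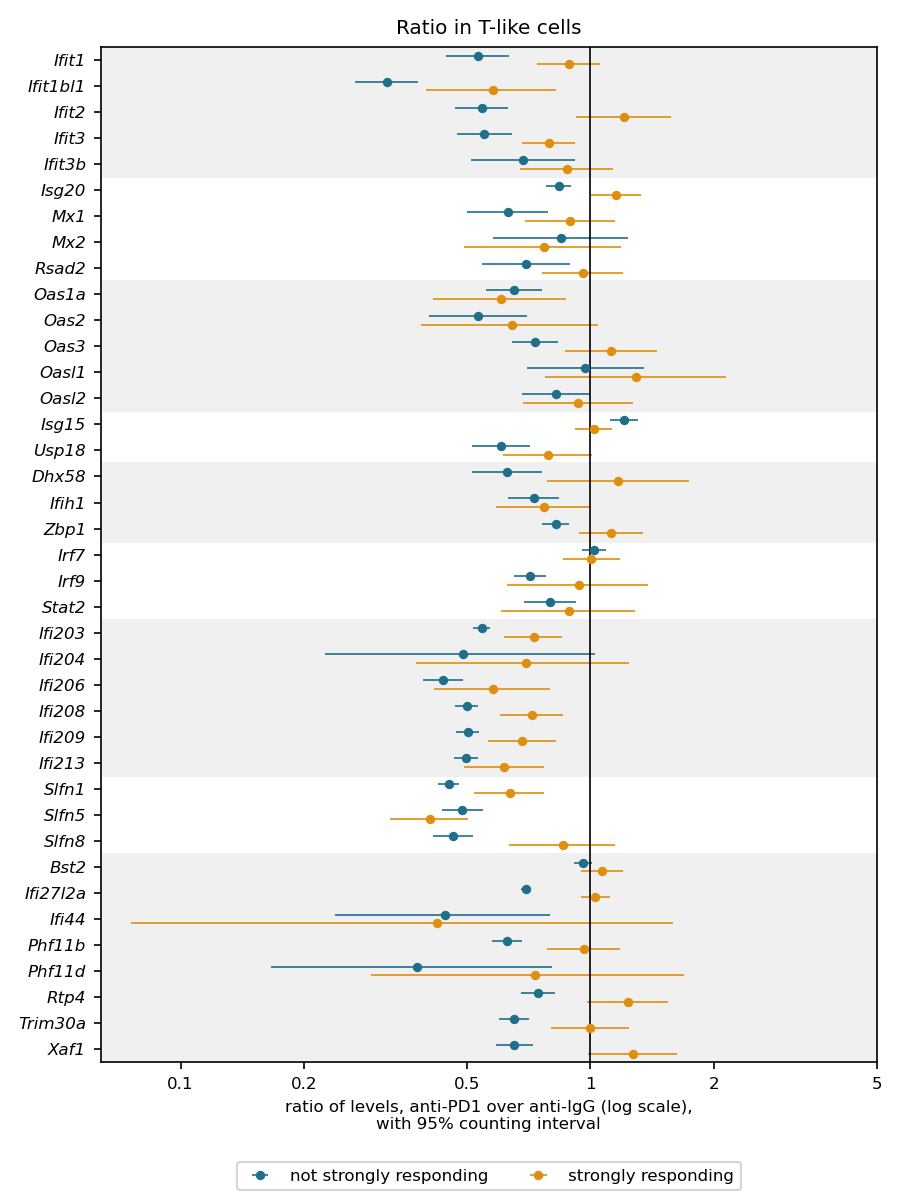
Ratio of anti-PD1 over anti-IgG levels (horizontal axis, log scale) for each member (vertical axis), blue for T-like cells that did not respond strongly and orange for strongly responding ones, with 95% counting intervals. Blue points lie left of 1 for 37 of the 39 members, with Isg15 and Irf7 the exceptions, and most orange intervals include 1.

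The members were next followed through 8 T-like subsets, named from marker genes that hold no member. The names stand for gates on single-cell counts and mean "-like" throughout. Subset values below take all cells of a gate, strongly responding ones included, unless these are said to be left out. Such cells were 2.43% of anti-IgG and 0.735% of anti-PD1 type 17 gamma-delta cells. In cells outside every subset gate they were 2.25% and 0.835%. In type 17 gamma-delta cells, 26 of 28 members with at least 50 UMIs were lower by 1.5 times in anti-PD1, beside 8.28% of all genes there. The summed level was 2552 and 1237 CPM, a ratio of 0.485 (0.465 to 0.505). T-like cells outside every subset gate gave 31 of 36 beside 10.7%, and a summed ratio of 0.574. Cells bearing NK receptors gave 18 of 27 beside 9.13%, CD4 naive cells 15 of 29 beside 8.83%, and Treg cells 12 of 22 beside 8.66%.

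The effector cells differed least. CD8 effector cells had 10 of 34 members lower beside 7.76% of all genes, with summed levels of 4091 and 3197 CPM (ratio 0.782, 0.760 to 0.804). CD4 effector cells had 12 of 35 lower beside 9.73%, with 4921 and 4149 (0.843, 0.820 to 0.867). Ifi27l2a alone made up a large part of these sums. It stood at 1030 and 812 CPM in CD8 effector cells (ratio 0.788) and at 1493 and 1468 in CD4 effector cells (0.983). CD8 naive cells had 12 of 27 lower beside 8.4%, and 3 higher beside 6.72%. The 3 were Isg15, Isg20 and Stat2, named after their values were seen, and the intervals of Isg20 (1.57, 0.954 to 2.62) and Stat2 (0.911 to 2.53) include 1. Whether the ratios differ between subsets was not tested, since each rests on 1 library a group.

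The p200 and Schlafen genes were lower in every subset in which they were measured. Ifi203, Ifi206, Ifi208, Ifi209, Ifi213, Slfn1, Slfn5, Slfn8 and the ligase gene Trim30a each had an interval below 1 in 8 of 8 subsets. The share of all genes with such intervals was not counted, and members with few UMIs could not be measured in all 8. Ifi203 had ratios from 0.428 in type 17 gamma-delta to 0.661 in CD8 effector cells. Slfn1, whose anti-IgG level ran from 47.6 CPM in type 17 gamma-delta to 307 in CD4 effector cells, had ratios from 0.342 to 0.583. The subset with little Slfn1 and the one with much thus both had less in anti-PD1.

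The core genes varied more, though some were measured in few subsets, such as Ifit3b in 3 and Oasl1 in 1. Ifit3 had a ratio of 0.163 (0.0975 to 0.263) in type 17 gamma-delta cells, with 39.6 and 6.46 CPM, and of 0.888 (0.733 to 1.08) in CD8 effector cells, with 85.1 and 75.6. The low ratio in type 17 gamma-delta cells rests largely on few cells: without the 8 and 5 strongly responding ones, 14 and 15 Ifit3 UMIs were left and the ratio was 0.551 (0.248 to 1.23). In T-like cells outside every subset gate, Ifit3 was at 61.8 and 14.4, and at 29.7 and 8.07 without the strongly responding cells (0.272, 0.188 to 0.386). Ifi27l2a had its lowest ratio in type 17 gamma-delta cells (317 and 178 CPM) and stood at 1493 and 1468 in CD4 effector cells, a ratio of 0.983 (0.937 to 1.03). Isg15 was higher in anti-PD1 in 4 subsets and lower in 4. It stood at 157 and 214 in CD4 effector cells, a ratio of 1.37 (1.19 to 1.57), and at 192 and 160 in CD8 effector cells, a ratio of 0.836 (0.735 to 0.951). Without the strongly responding cells, Isg15 was at 75.2 and 133 in CD4 effector cells (1.77, 1.46 to 2.14), at 50.9 and 76.4 in Treg cells and at 59.8 and 82.7 in cells outside the gates (1.38, 1.18 to 1.62). Type 17 gamma-delta cells went the other way, with 71.8 and 56.1 (0.782, 0.624 to 0.982).

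**Figure D5:**
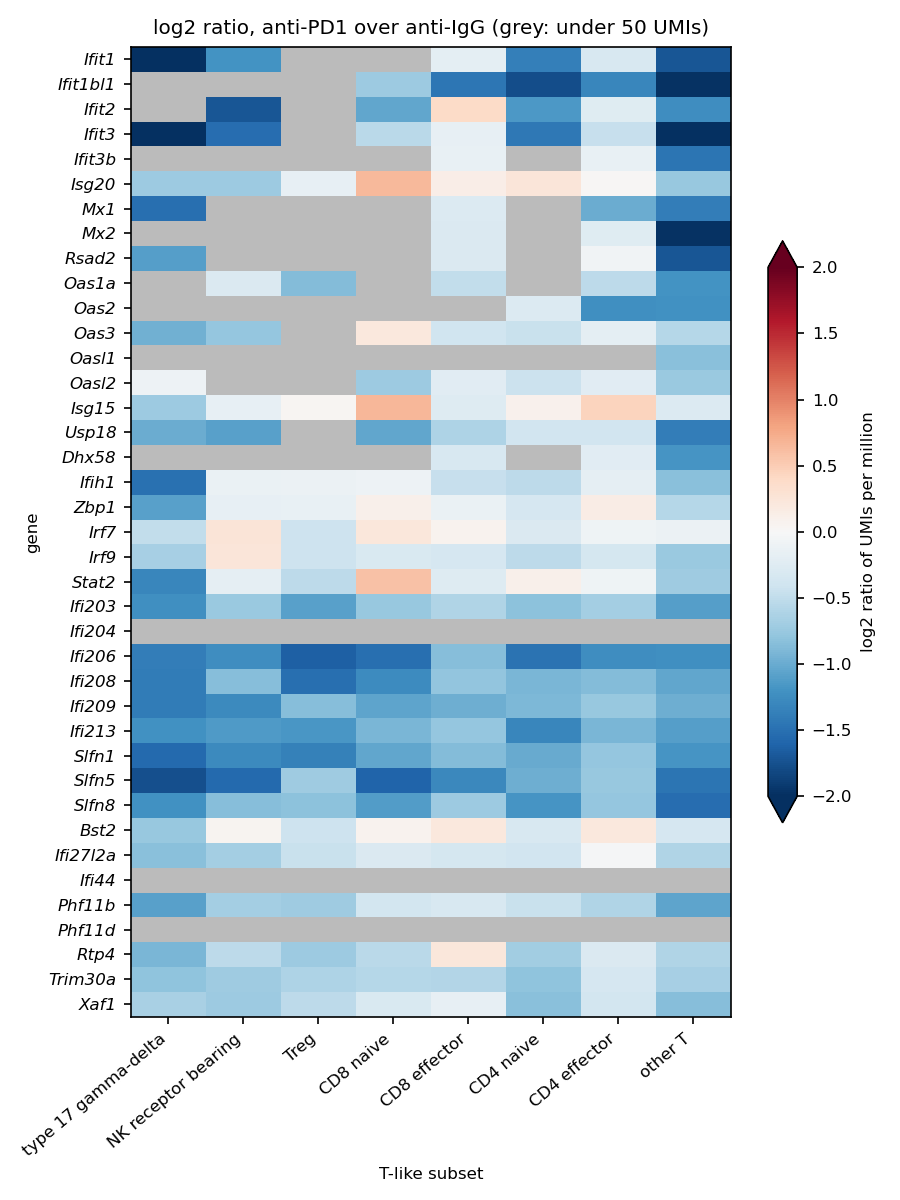
Log2 ratio of anti-PD1 over anti-IgG levels (colour, blue lower and red higher in anti-PD1) for each member (vertical axis) in 8 T-like subsets (horizontal axis), with grey where a member had under 50 UMIs. The p200 and Schlafen rows are blue in every column, apart from Ifi204, which is grey throughout, and Isg15, Isg20 and Bst2 are red in 4 columns each.

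Cells other than T cells were few. B-like cells, the only such gate with at least 50 cells in both libraries (58 and 143), had summed member levels of 1386 and 1269 CPM, a ratio of 0.915 (0.793 to 1.06). Plasmacytoid dendritic-like cells, known for making much type I interferon, numbered 35 and 71, under that minimum in anti-IgG. They had Bst2 at 4412 and 4685 and Irf7 at 387 and 373, while Ifi27l2a was at 1012 and 493. Macrophage-like cells (47 and 100) and endothelial-like cells (60 and 34), also short of it in 1 library, had summed ratios of 0.846 and 0.830. Strongly responding cells were 4 of 41 endothelial-like cells in anti-IgG and 0 of 28 in anti-PD1, 0 of 46 and 2 of 92 macrophage-like, 1 of 35 and 0 of 70 plasmacytoid dendritic-like and 0 of 5 and 1 of 7 conventional dendritic-like cells, too few to order.

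The genes up and down the pathway were read from 5 lists, which were also chosen with earlier results of these data known. Of 13 interferon ligand genes, only Ifng, the type II interferon, had 50 UMIs in T-like cells, at 62.6 and 61.3 CPM (ratio 0.979, 0.903 to 1.06). Ifnb1 had 1 UMI in anti-IgG and 2 in anti-PD1 over all kept cells, and 0 and 0 in T-like cells. Of 15 measured receptor and signal genes, 4 were higher by 1.5 times and 1 was lower, beside 6.09% and 9.84% of all genes, with a median log2 ratio of 0.09. Ifnar1 was at 71.2 and 115 (ratio 1.61) while its partner chain Ifnar2 was at 87.2 and 81.5 (0.935). Ifngr2, a chain of the interferon gamma receptor, was at 41.7 and 92.6, Stat3 at 152 and 252 and Irf5 at 7.72 and 14.0. Il10rb, shared by receptors of interleukin 10 and interferon lambda, was at 21.1 and 13.7.

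Of 9 measured brakes on the pathway, Irf2bp2, a corepressor, was the only one past 1.5 times, at 155 and 67.4 CPM, a share near the 9.84% of all genes that were lower. Of 11 genes of nucleic acid sensing, 2 were lower by 1.5 times, beside 9.84% of all genes, and 9 had ratios below 1, beside 63.0%. Tlr7, the sensor of single-stranded RNA, was at 2.57 and 1.10 and Ikbke, a kinase upstream of interferon genes, at 51.5 and 33.3. Of 46 measured further interferon-induced genes, 45 had ratios below 1 (63.0% of all genes did) and 18 were lower by 1.5 times (9.84% of all genes were), with a median log2 ratio of -0.46, and 0 were higher by as much. The lowest were Cmpk2, a nucleotide kinase beside Rsad2, at 22.1 and 9.24 (0.419) and Ifi214. Slfn9 had a ratio of 0.487, Hsh2d 0.532, Trim34a 0.546, Slfn2 0.561 and Trim12c 0.570. Samd9l was at 0.579, Trim21 at 0.585, Trim12a at 0.588, Slfn3 at 0.590, Oas1b at 0.600 and Ddx60 at 0.602. Herc6, the ligase that attaches Isg15, was at 0.620, Tnfsf10 at 0.626, Ly6a at 0.638, Parp14 at 0.646 and Daxx at 0.665.

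Other genes marked the strongly responding cells too. Of 1088 genes with at least 100 UMIs in these cells, 93 outside the members were at least 2 times higher there than in other T-like cells in both libraries. That limit favours genes that are high in these cells, so the 93 are a description only. Of 11840 genes outside the core with at least 50 UMIs in T-like cells, 346 (2.92%) were higher by as much. The 10 of the 93 with the highest ratio were Cxcl10, Cmpk2, Ifitm3, Iigp1, Ube2l6, Gm12250, Tor3a, Herc6, Phf11c and Ddx60. Cxcl10, a chemokine that draws Cxcr3-bearing T cells, went against the members: it stood at 303 CPM in strongly responding anti-IgG cells and 845 in those of anti-PD1, and at 4.75 and 24.3 in the other T-like cells. In the strongly responding cells the 8 macrophage markers stood at 11.6 and 25.1 and the 4 neutrophil markers at 0 and 107. The part of these markers' cells in the Cxcl10 values was not tested. Iigp1, a GTPase also driven by interferon gamma, stood at 303 and 118 in strongly responding cells.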

How the data were processed

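The authors deposited raw counts of UMIs for each gene in each barcode, from 1 library a group. Per the file headers the software was Cell Ranger 7.1.0. The submitters' processing notes list mm10 as build, with Seurat 4.4.0 and Cell Ranger 7.2.0, and the sources used here do not name the annotation. The libraries held 22806806 and 29046341 UMIs.

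Kept cells had at least 300 genes, at least 500 UMIs and no more than 10% of UMIs from mitochondrial genes. T-like cells had at least 2 UMIs of T markers; the gate limits were set after the data were seen, and the members and gene lists were chosen with earlier results of these data known. Cells with markers of more than 1 lineage were left out and no doublet caller was used. UMIs were summed per library and divided by all UMIs, and ratios have exact conditional 95% intervals. A gene at 0 in 1 library was set to 3 counts in the all-gene counts. A member counted as lower or higher past 1.5 times, with at least 50 summed UMIs. Shares have Clopper-Pearson intervals. Free RNA was not removed.

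All members were accounted for. From the pathway lists, genes past 1.5 times were named, with Ifnar1, Ifnar2 and Ifnb1 in any case, and outside them the 10 genes highest in strongly responding cells. Ratios, thinning and the call were tested on simulated data with Python 3.11.15, numpy 2.4.6, scipy 1.17.1 and pandas 2.3.3. The bound first set for the share of simulated responding cells called was missed narrowly and then lowered, and the shares are given in the results. Alternatives were thinned cells, an equal subset mix, equal cell weights, other gates, limits and filters, and another thinning seed.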

Additional observations from a re-analysis of the deposited data

Results flagged for a closer look

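Isg15 and Bst2 had counting intervals on opposite sides of 1 in different T-like subsets. Isg15 was higher in anti-PD1 in CD8 naive cells, at 30.2 and 47.7 CPM in anti-IgG and anti-PD1 (ratio 1.58, 1.15 to 2.19), and lower in type 17 gamma-delta cells, at 125 and 75.5 (0.606, 0.506 to 0.725). Bst2 was higher in CD8 effector cells, at 237 and 274 (1.16, 1.04 to 1.29), and lower in type 17 gamma-delta cells, at 233 and 138 (0.591, 0.518 to 0.674). These values include the strongly responding cells. Without them, the Bst2 interval in CD8 effector cells included 1, at 203 and 214 (1.05, 0.932 to 1.19). Its lowest ratio in any subset was then 0.746. Isg15 was then at 25.9 and 46.5 in CD8 naive cells (1.80, 1.28 to 2.55), and its lowest ratio in any subset was 0.782. The difference between subsets was not tested, and each value rests on 1 library a group.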

How the results depend on the processing

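The median log2 ratio of the members in T-like cells stayed between -0.80 and -0.66, and the number lower by at least 1.5 times between 18 and 27. The 18 was counted without the p200 and Schlafen genes, an alternative chosen after seeing the data. These numbers are out of unlike totals: 27 of 39 members in the main setting, 23 of 34 in thinned cells, and fewer than 39 without those genes. The summed ratio of 0.635 was 0.661 in thinned cells, 0.671 with an equal mix of subsets and 0.710 without the p200 and Schlafen genes. In cells that did not respond strongly, 0.662 became 0.686, 0.696 and 0.747 under the same changes, 0.671 with the limit of 3 UMIs of 2 core genes and 0.651 with 6 UMIs of 4. The responding shares of 2.27% and 1.25% became 3.73% and 1.96%, 1.33% and 0.695% under those limits, and 8.84% and 5.07% without thinning. Responding shares otherwise stayed between 2.16% and 2.76% and between 1.21% and 1.35%. Across 7 alternatives, 38 of 39 members kept a ratio below 1 in T-like cells, with Isg15 the exception. Without strongly responding cells, 32 of 39 did under 9 alternatives. There Ifi44 turned from 0.442 to 1.12 in thinned cells. After thinning, Ifi44 was detected in only 0.135% (anti-IgG) and 0.102% (anti-PD1) of all T-like cells. Its thinned ratio thus rests on few UMIs and does not show a reversal, and the cause of the turn was not tested. No paired analysis was possible because each group is 1 library, and leaving out a replicate would leave no group.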
